A study of Homo sapiens with 9 samples.

Results

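The CREB-responsive immediate early genes described here are NR4A1, NR4A2, NR4A3, EGR1, CREM, PER1, SIK1, DUSP1, IER2 and IER3. They were taken by symbol from the deposited count table, in which they are 10 of the 20777 genes listed. All 10 were listed and all 10 passed the filter on low counts, which left 13384 genes for testing.

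CREB is a leucine zipper transcription factor that is phosphorylated by protein kinase A when cyclic AMP rises. Together with its CRTC coactivators it drives genes that carry the cyclic AMP response element (CRE) near their start. Immediate early genes are transcribed within minutes of a stimulus without new protein synthesis, and many of their transcripts are short-lived, so that a single late time point records a level and not the early burst. In hepatic stellate cells, the main collagen-producing cells of the injured liver, TGF-β is known to promote activation, and cyclic AMP signalling has been linked to both weaker and stronger activation.

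The cells were LX-2, an immortalised human stellate cell line, grown in culture medium with serum. The control group comprised 3 untreated libraries, the TGF-β group 3 libraries and the TGF-β + uridine group another 3, and the labels place both treatments on day 1. In the methods of the study, TGF-β came first and the medium was then replaced by medium containing uridine. The methods do not state a uridine concentration for the sequenced cells in particular. No source says whether the libraries of a group came from separate cultures, so the p-values measure the spread between these samples, which may be technical. All libraries derive from 1 cell line.

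Each library held between 40539751 and 41467124 reads on genes, and a count of 3 reads corresponded to 0.0629 to 0.0889 normalized CPM, the count scaled to library size. The control libraries stood apart from one another. The slope of log2 CPM on the GC fraction of a gene was 5.59, -0.72 and -4.05 in control replicates 1, 2 and 3, and lay between -2.65 and 2.25 in the treated libraries. Mitochondrial genes took 11.1% to 16.5% of the reads, with the highest share in control replicate 1. Of 15 stellate and fibroblast markers, 13 were listed. VIM, TIMP1, SPARC and THY1 stood at 42.3 FPKM or more in every library, and COL1A1, ACTA2, PDGFRB and DES between 1.91 and 18.9 FPKM. COL3A1, LUM, DCN and RGS5 stayed under 0.5 FPKM in every library, COL1A2 had at most 1 read, and PDGFRA and LRAT were not listed. The hepatocyte markers summed to at most 0.107 FPKM, and the endothelial markers to at most 0.478 FPKM. KRT7, a keratin of bile duct and other simple epithelia, reached 595 to 1178 FPKM, whereas EPCAM and CDH1 stayed under 0.5 FPKM.

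The promoters of the genes are shown first because the CRE is the element that gives the group its name. Promoter windows of 250 bases before the transcript start were taken from RefSeq (GRCh38.p14) and were found for 8 of the 10 genes. NR4A2 and IER3 had no entry. The DUSP1 and EGR1 windows are given whole. DUSP1 passed the edgeR test described below in TGF-β + uridine against control. EGR1 passed that test in no comparison but had the largest change in size with uridine. Both windows are written 5′ to 3′ on the strand of the gene with the CRE core letters CGTCA or TGACG in capitals. DUSP1 (a phosphatase of MAP kinases) is read from the minus strand at chr5:172771196-172771445, and EGR1 (a zinc finger transcription factor) from the plus strand at chr5:138465229-138465478.
DUSP1: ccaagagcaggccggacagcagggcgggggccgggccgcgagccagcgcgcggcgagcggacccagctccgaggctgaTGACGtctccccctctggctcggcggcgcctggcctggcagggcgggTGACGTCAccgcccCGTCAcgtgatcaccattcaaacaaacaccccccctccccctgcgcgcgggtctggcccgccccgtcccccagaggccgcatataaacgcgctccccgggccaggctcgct
EGR1: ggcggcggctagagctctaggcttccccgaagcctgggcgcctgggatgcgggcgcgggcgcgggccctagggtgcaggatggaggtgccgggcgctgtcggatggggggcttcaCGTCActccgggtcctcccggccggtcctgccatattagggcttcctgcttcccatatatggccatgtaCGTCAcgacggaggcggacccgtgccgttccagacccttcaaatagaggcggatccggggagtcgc

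Stretches of 30 bases are given for the 3 other genes that held at least 2 CRE cores in one window. The stretch of NR4A3 (an orphan nuclear receptor) lies at chr9:99821785-99821814 on the plus strand, that of SIK1 (a salt-inducible kinase) at chr21:43427246-43427275 on the minus strand, and that of CREM (a member of the CREB family) at chr10:35195841-35195870 on the plus strand. The CREM window belongs to a start inside the gene.
NR4A3: gtcccatggCGTCAcatTGACGtctcgcat
SIK1: gctctggCGTCAaagcgaCGTCAatgggcg
CREM: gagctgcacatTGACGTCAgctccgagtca

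The CRE palindrome TGACGTCA, searched on both strands, stood in the windows of DUSP1 and CREM. In DUSP1 it covered bases 125 to 118 before the start, and in CREM bases 50 to 43 before the internal start. Of all 27305 genes with a window, 2.03% held the palindrome. The CRE core, which the palindrome contains in both orientations, was found in 6 of the 8 genes with windows (NR4A3, EGR1, CREM, SIK1, DUSP1 and IER2), beside 24.9% of all genes. No CRE core was found in the windows of NR4A1 or PER1, which says only that these letters are not in these windows. CREM had 7 windows and NR4A1 had 2, so that these genes had more chances of a match.

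EGR1 alone among the 8 held CArG boxes, the binding element of serum response factor, at bases 105 to 96 and 83 to 74 before its start, between its CRE cores. This motif occurred in 1.44% of all genes with a window. The EGR binding motif GCGNGGGCG was found in EGR1 itself and in SIK1, beside 10.1% of all genes. The letters TATAAA, searched on both strands, stood 30 to 25 bases before the start of DUSP1 on the strand of the gene. In 1 window of CREM they stood on the opposite strand, 125 to 120 bases before that start. Of all genes with a window, 13.05% held these letters. Neither the AP-1 motif TGANTCA nor the NR4A motif AAAGGTCA was found in any of the 15 windows. A match of letters is a description and does not show that a factor binds there.

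**Figure D1:**
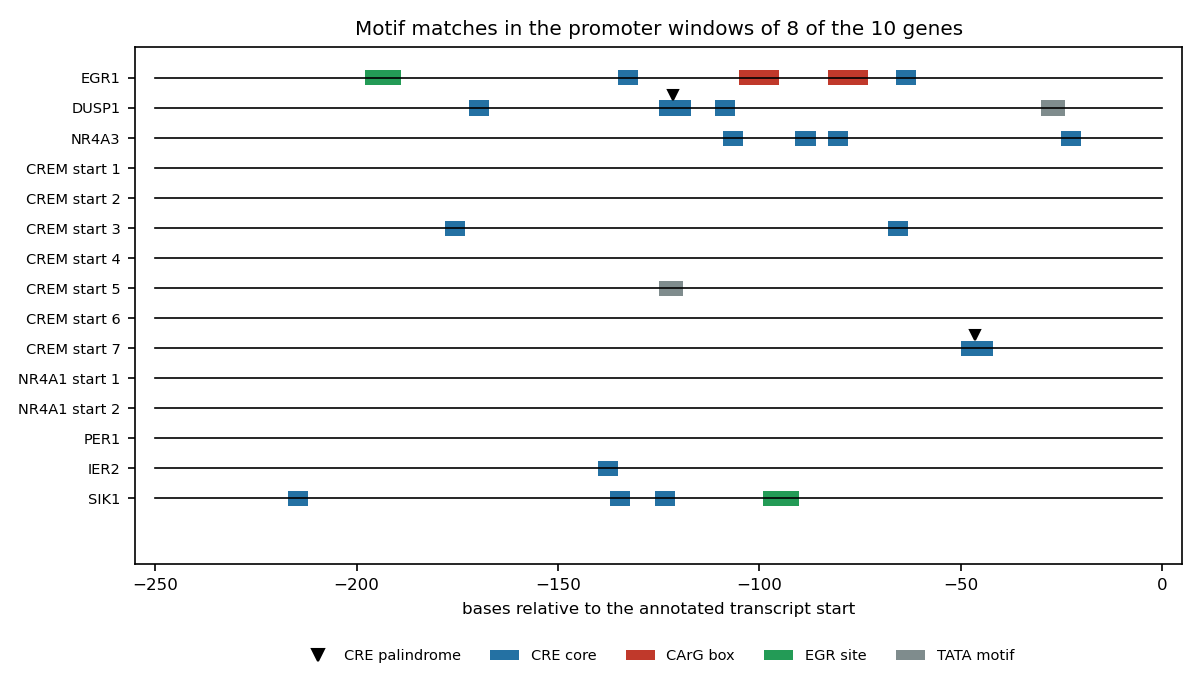
Positions of motif matches in the 250 bases before each annotated transcript start of 8 of the 10 genes, with 1 line for each start. Coloured bars mark each motif at its length and black triangles mark the CRE palindrome, which appears in DUSP1 and in the internal start of CREM.

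Levels were compared between genes per length, as FPKM, the count scaled to the library total and to gene length. In the control group IER3 was highest, with a median of 48.2 FPKM, followed by IER2 with 24.5, PER1 with 19.9, DUSP1 with 16.7 and SIK1 with 2.36 FPKM. These 5 genes did not overlap their neighbours in this order over the 3 control libraries. NR4A1, with a median of 0.879 FPKM, NR4A2 with 0.620, NR4A3 with 0.601 and EGR1 with 0.534 each overlapped a neighbour in the order, so that neighbours among them could not be ranked. CREM was lowest with 0.173 FPKM. Libraries held 22 to 99 reads for EGR1 and 30 to 52 reads for CREM, against 2375 to 5988 reads for IER3.

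**Figure D2:**
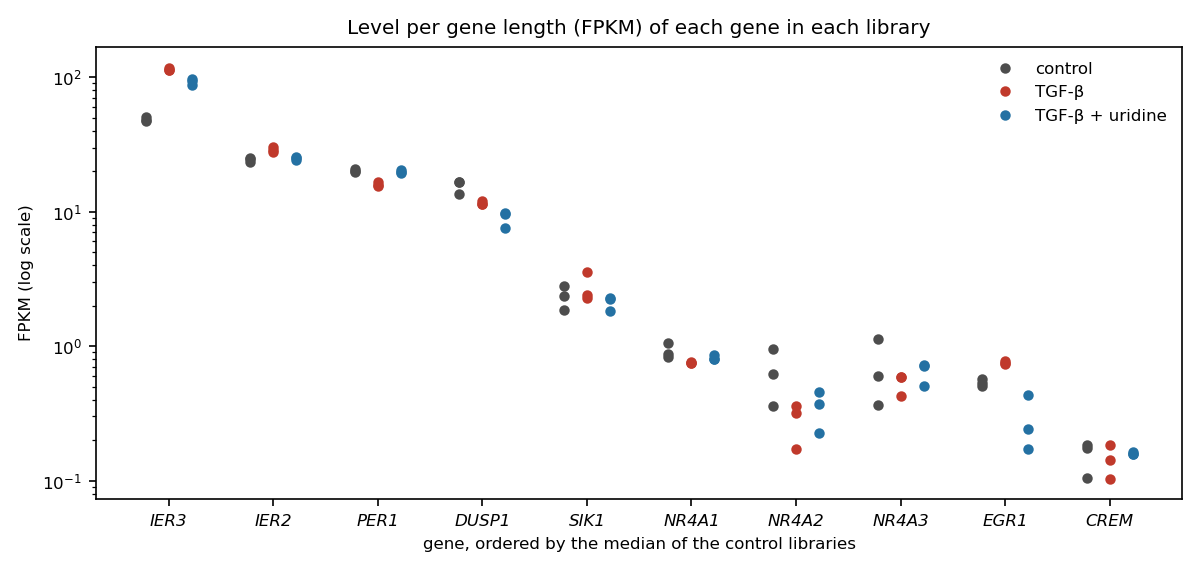
FPKM of each gene in each of the 9 libraries on a log axis, coloured by group, with genes in the order of their control medians. IER3, IER2, PER1 and DUSP1 lie between 7.52 and 118 FPKM, and the NR4A genes, EGR1 and CREM between 0.103 and 1.13 FPKM.

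Further values are CPM after normalization between libraries by the trimmed mean of M values (TMM), except where FPKM is named. Changes are log2 fold changes ± SE from edgeR's quasi-likelihood test over all 9 libraries, with Benjamini-Hochberg adjustment over all 13384 tested genes. A gene passed the test at an adjusted p under 0.05. The exact permutation test of 3 libraries against 3 reached its smallest possible two-sided p of 0.1 wherever groups did not overlap. Since bulk RNA was sequenced, fewer expressing cells and less RNA per cell cannot be told apart.

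TGF-β raised IER3 and no other gene of the group passed the test when TGF-β was set against control. In the background, 3.38% of the 13384 tested genes passed. The groups did not overlap for 5 of the 10 genes, with EGR1 and IER3 higher and NR4A2, PER1 and DUSP1 lower in TGF-β, beside 17.7% of all tested genes. The median log2 fold change of the 10 genes was -0.18, and that of all tested genes was -0.05. An unadjusted p under 0.05 was found for IER3, DUSP1, NR4A2 and PER1.

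No gene of the group passed edgeR's test when the TGF-β + uridine group was compared with the TGF-β group, whose labels differ by uridine. No source says whether the TGF-β libraries had the same change of medium. An effect of uridine and one of the medium change therefore cannot be told apart. In this comparison 0.0448% of all tested genes passed, or 6 genes, all lower with uridine. EGR1 and DUSP1 had an unadjusted p under 0.05, and EGR1 was the 1 gene of the group that passed in DESeq2. The groups did not overlap for 6 of the 10 genes, with EGR1, SIK1, DUSP1, IER2 and IER3 lower and PER1 higher with uridine. This count stands beside 25.6% of all tested genes. The median log2 fold change was -0.08 for the 10 genes and 0.02 for all tested genes.

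DUSP1 fell and IER3 rose when the TGF-β + uridine group was compared with control, a comparison in which 5.33% of all tested genes passed. IER3 was higher and NR4A2, EGR1, SIK1 and DUSP1 were lower in all libraries of the TGF-β + uridine group than in any control library, so that 5 of the 10 genes did not overlap, beside 19.7% of all tested genes. The median log2 fold change was -0.12 for the 10 genes and -0.01 for all tested genes. The 3 comparisons share libraries, and each gene's values are therefore given side by side below.

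Because the control libraries differed in GC slope, a fit with each library's GC slope as a covariate was run beside the main fit. It passed many more genes in the whole table: 19.1% in the uridine comparison, 20.3% in the TGF-β comparison and 31.2% in the comparison of TGF-β + uridine with control. Against these backgrounds it passed 5, 5 and 4 of the 10 genes. With this covariate, EGR1, DUSP1, IER2 and IER3 were lower and PER1 was higher in TGF-β + uridine than in TGF-β. TGF-β raised IER2 and IER3 and lowered NR4A2, PER1 and DUSP1. The combined treatment raised IER3 and lowered DUSP1, EGR1 and NR4A2. The genes that passed with the covariate had a smaller SE there than in the main fit, as IER3 with uridine, at -0.32 ± 0.0442 with the covariate and -0.34 ± 0.151 without it. For CREM the SE was larger with the covariate, at 0.306 against 0.292 with uridine.

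**Figure D3:**
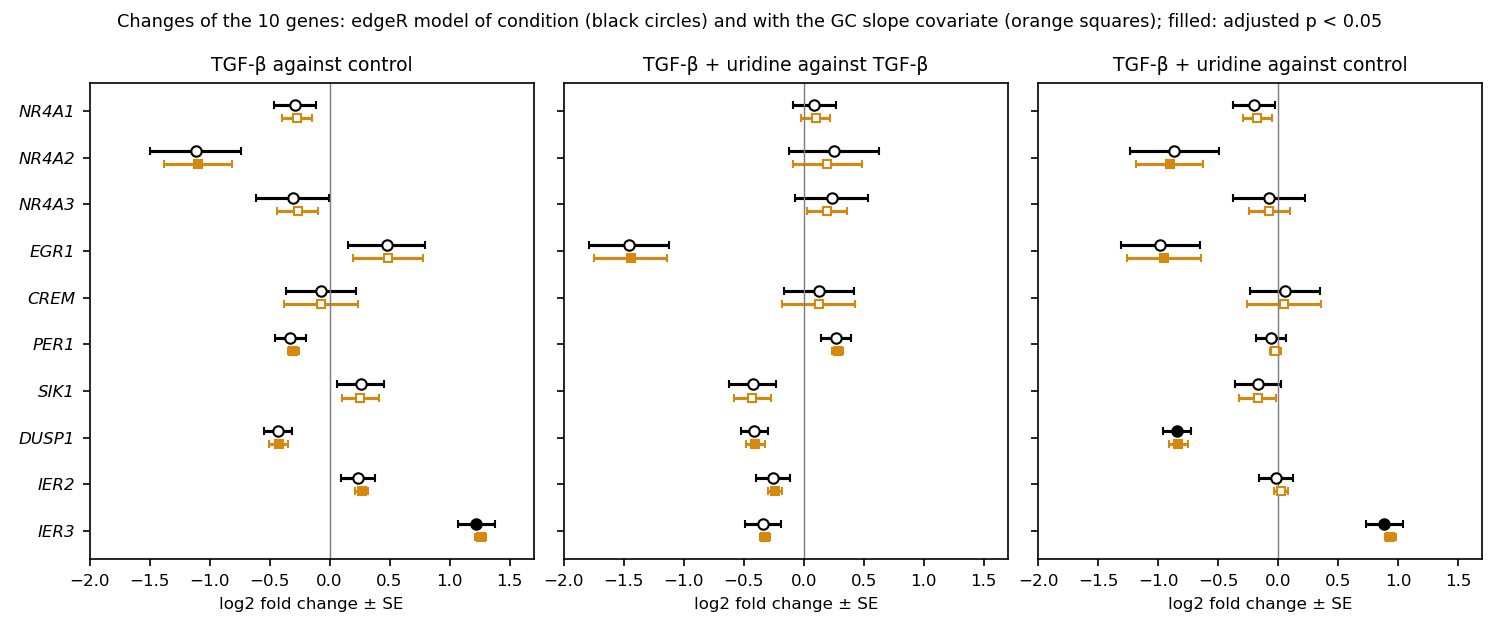
log2 fold changes of the 10 genes in the 3 comparisons with bars of 1 SE, from the model of condition (black circles) and with the GC slope covariate (orange squares), filled where the adjusted p is under 0.05. Without the covariate IER3 passed after TGF-β (1.22), and DUSP1 (-0.84) and IER3 (0.89) passed when the combined treatment was compared with control.

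The 3 NR4A genes encode orphan nuclear receptors that act as transcription factors without a known physiological ligand. None of them passed the main edgeR test or DESeq2's test in any of the 3 comparisons. NR4A1 (ENSG00000123358, chr12:52022832-52059507) was measured at 8.18, 8.14 and 6.10 CPM in control replicates 1 to 3, 6.24, 6.12 and 5.99 CPM in the TGF-β group and 6.63, 6.93 and 5.96 CPM in the TGF-β + uridine group. Control replicates 1 and 2 were the highest, and the 3 groups overlapped. The log2 fold change was -0.29 ± 0.176 after TGF-β and 0.09 ± 0.176 with uridine.

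NR4A2 (ENSG00000153234, chr2:156324432-156342348) was the lowest of the NR4A genes in reads, with 25 to 139 per library. Its values were 1.54, 2.12 and 2.92 CPM in control, 0.629, 1.28 and 1.12 CPM in TGF-β and 1.26, 0.862 and 1.49 CPM in TGF-β + uridine. All 6 treated libraries lay below all 3 control libraries, and the treated groups overlapped each other. The log2 fold change was -1.12 ± 0.376 after TGF-β (adjusted p = 0.206, edgeR) and -0.86 ± 0.373 for TGF-β + uridine against control (adjusted p = 0.270, edgeR). With the GC slope covariate both passed, with edgeR adjusted p-values of 0.0138 and 0.0255, and the second was lost when the replicate block was added to that fit (adjusted p = 0.0554, edgeR).

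NR4A3 (ENSG00000119508, chr9:99821855-99866891) was measured at 3.17, 4.17 and 7.03 CPM in control, 3.17, 4.26 and 4.19 CPM in TGF-β and 4.91, 3.92 and 4.81 CPM in TGF-β + uridine. The highest library was control replicate 3, which was also the highest for NR4A2 and had the lowest GC slope. Both genes lie below the median GC content of 49.3% of the tested genes (47.9% for NR4A2 and 46.9% for NR4A3). CREM, with the lowest GC content of the 10 genes at 40.4%, was not highest in that library. Whether GC content plays a part here was not tested. Without control replicate 3 the log2 fold change of NR4A3 after TGF-β turned from -0.31 to 0.08, so that no direction can be given. Of the summed FPKM of the 3 NR4A genes, NR4A1 made up 29.7% to 53.7% in control, 44.4% to 55.6% in TGF-β and 40.5% to 52.2% in TGF-β + uridine.

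EGR1 (ENSG00000120738, chr5:138465490-138469315), whose product binds GC-rich sites in growth and matrix genes, was lowest with uridine. It was measured at 1.93, 1.74 and 1.45 CPM in control, 2.49, 2.30 and 2.31 CPM in TGF-β and 1.30, 0.575 and 0.700 CPM in TGF-β + uridine. These values correspond to 65, 73 and 69 reads in control, 99, 95 and 95 reads in TGF-β and 56, 22 and 31 reads in TGF-β + uridine. The 3 groups did not overlap in any pair, and the order was TGF-β over control over TGF-β + uridine. Counting error alone gave a 95% Poisson interval of 13.8 to 33.3 reads for the lowest library and of 76.9 to 116 reads for a TGF-β library with 95 reads.

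The log2 fold change of EGR1 with uridine was -1.46 ± 0.332, or 2.75-fold lower, the largest in size of the 10 genes in that comparison. Its unadjusted p was 0.00177 and its adjusted p 0.251 in edgeR, 0.00777 in DESeq2 and 0.00562 with the GC slope covariate in edgeR. Over the 9 fits that each left out 1 library, the value ranged from -1.89 to -1.24 and did not pass in edgeR, with adjusted p-values from 0.0572 to 0.790. After TGF-β the change was 0.48 ± 0.322 (adjusted p = 0.742, edgeR), and for TGF-β + uridine against control it was -0.98 ± 0.331 (adjusted p = 0.150, edgeR). The paralogues EGR2, EGR3 and EGR4 were included in the list of paralogues below.

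CREM (ENSG00000095794, chr10:35126791-35212958) encodes activators and repressors of the CREB family, among them the inducible repressor ICER from an internal start. Counts per gene cannot separate these products. CREM was measured at 0.889, 1.24 and 1.05 CPM in control, 1.03, 0.726 and 1.27 CPM in TGF-β and 1.07, 1.18 and 1.06 CPM in TGF-β + uridine. The groups overlapped throughout, with log2 fold changes of -0.07 ± 0.292 after TGF-β and 0.13 ± 0.292 with uridine. At 30 to 52 reads per library, changes of the size of these errors were not detectable.

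PER1 (ENSG00000179094, chr17:8140472-8156506), a repressor of the circadian clock that CREB also induces, was the 1 gene of the group that lay higher with uridine than with TGF-β alone in all libraries. It was measured at 112, 93.1 and 80.5 CPM in control, 75.4, 74.5 and 77.8 CPM in TGF-β and 91.3, 98.7 and 84.3 CPM in TGF-β + uridine. Every TGF-β library lay below every other library, whereas control and TGF-β + uridine overlapped. The log2 fold change was -0.33 ± 0.128 after TGF-β (adjusted p = 0.305, edgeR) and 0.27 ± 0.128 with uridine (adjusted p = 0.614, edgeR). With the GC slope covariate the SE of both values was 0.0438, and the edgeR adjusted p-values were 2.5e-04 and 8.7e-04. PER1 has the highest GC content of the 10 genes, at 62.7%, and its control values in CPM stood in the same order as the GC slopes of the 3 libraries. The control values of NR4A1, EGR1, DUSP1, IER2 and IER3 stood in that order as well. Those of NR4A2, NR4A3 and, by a small margin, SIK1 stood in the reverse order, and those of CREM in neither. In FPKM, which are scaled to the library total without TMM, PER1 stood at 19.6, 20.6 and 19.9 in control replicates 1 to 3, which is not that order. On the FPKM scale the control values of NR4A2, NR4A3, SIK1 and DUSP1 stood in the reverse order. Those of NR4A1, EGR1, CREM, IER2 and IER3 stood in neither. The part of GC content and of the normalization in these values was not tested.

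SIK1 (ENSG00000142178, chr21:43414483-43427189) encodes a kinase that phosphorylates the CRTC coactivators and holds them in the cytoplasm. It was measured at 10.8, 10.8 and 11.5 CPM in control, 17.4, 10.9 and 11.4 CPM in TGF-β and 10.3, 9.28 and 9.96 CPM in TGF-β + uridine. TGF-β replicate 1 stood apart, and the other TGF-β libraries lay within the control range. The TGF-β + uridine libraries lay below all others by a small margin. The log2 fold change with uridine was -0.43 ± 0.195 (adjusted p = 0.588, edgeR), and -0.18 without TGF-β replicate 1. For TGF-β + uridine against control it was -0.17 ± 0.195. A near-identical copy, SIK1B at chr21:6111134-6123739, is annotated on the same chromosome and not listed in the count table, so that the division of reads between the copies is uncertain.

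DUSP1 (ENSG00000120129, chr5:172768090-172771195), which inactivates the MAP kinases p38, JNK and ERK and is induced by cyclic AMP and glucocorticoids, fell in TGF-β + uridine against control, with TGF-β alone in between. It was measured at 33.5, 32.4 and 29.1 CPM in control, 23.7, 24.2 and 22.7 CPM in TGF-β and 19.0, 16.3 and 17.8 CPM in TGF-β + uridine. No library of one group overlapped another group. The order control over TGF-β over TGF-β + uridine without overlap was shared by 186 of the tested genes, or 1.39%. In the comparison of TGF-β + uridine with control, DUSP1 was 1.79-fold lower, with a log2 fold change of -0.84 ± 0.114 (adjusted p = 0.00388, edgeR).

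The fall of DUSP1 in that comparison passed in all 9 fits that left out 1 library, from -0.90 to -0.79, and under all 9 other alternative settings. The steps between neighbouring groups were close to each other in size and neither passed the main test. The first step, TGF-β against control, was -0.43 ± 0.114 (adjusted p = 0.0899, edgeR). It passed in 4 of 18 alternative settings, with an adjusted p of 0.04999 in DESeq2, 0.0498 without control replicate 1, and 0.00156 and 0.00477 with the GC slope covariate, without and with the replicate block. In the other 14 it did not pass, and the adjusted p reached 0.369 without TGF-β replicate 3 (edgeR). The second step, uridine, was -0.41 ± 0.114 (adjusted p = 0.319, edgeR, and 0.00371 with the GC slope covariate). The genes with the most similar profile over the 9 libraries were RAB40B and RMI2, whose centred log2 CPM differed from that of DUSP1 by a root mean square of 0.0755 and 0.0790.

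IER2 (ENSG00000160888, chr19:13150415-13154908), a small nuclear protein induced by growth factors, was measured at 62.9, 51.2 and 42.9 CPM in control, 62.3, 64.2 and 58.5 CPM in TGF-β and 49.1, 56.6 and 49.4 CPM in TGF-β + uridine. The control values overlapped both treated groups. The log2 fold change was 0.24 ± 0.143 after TGF-β and -0.25 ± 0.143 with uridine, and it was -0.02 ± 0.143 for TGF-β + uridine against control. None passed the main edgeR test, with adjusted p-values of 0.657, 0.710 and 0.986. The first 2 passed with the GC slope covariate (adjusted p = 0.00459 and 0.0114, edgeR). The deposited FPKM are scaled to the library total without TMM, whose factors were 0.820, 1.04 and 1.16 in control replicates 1 to 3. For IER2 they were 23.5 to 25.1 in control, 27.9 to 30.3 in TGF-β and 24.2 to 25.3 in TGF-β + uridine. On that scale the TGF-β libraries lay above the others, but the share of all genes that separate on it was not counted.

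IER3 (ENSG00000137331, chr6:30743199-30744554), an early response gene whose product influences cell survival, rose the most. It was measured at 75.9, 56.6 and 51.5 CPM in control, 151, 141 and 138 CPM in TGF-β and 115, 124 and 101 CPM in TGF-β + uridine. The groups did not overlap, and the order was TGF-β over TGF-β + uridine over control, an order shared by 145 of the tested genes, or 1.08%. TGF-β raised IER3 2.34-fold, with a log2 fold change of 1.22 ± 0.153 (adjusted p = 0.00259, edgeR). Over the fits that left out 1 library this value lay between 1.11 and 1.40 and passed in 9 of 9.

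With uridine IER3 was at 0.791 of its TGF-β level, a log2 fold change of -0.34 ± 0.151 (adjusted p = 0.575, edgeR, and 3.9e-04 with the GC slope covariate). The TGF-β + uridine group stayed 1.85-fold above control, at 0.89 ± 0.152 (adjusted p = 0.0110, edgeR). This call was lost without control replicate 2 (adjusted p = 0.0665, edgeR), without TGF-β + uridine replicate 1 (0.0545) or 2 (0.0524), and when only these 6 libraries were fitted (0.0651). The values under those settings were between 0.81 and 0.89. A short antisense transcript, IER3-AS1, had 2 to 20 reads per library, against at least 2375 for IER3. The sources used here do not state whether counting used the strand.

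The nearest profiles to IER3 were those of JUNB and ITGA5, with root mean square differences of 0.0830 and 0.0868 in centred log2 CPM over the 9 libraries. Summed levels of the stellate, biliary and leukocyte markers moved in the same order of groups as IER3. The hepatocyte and endothelial sums overlapped between all groups and reached their highest values, 0.107 and 0.478 FPKM, in TGF-β + uridine. The stellate and fibroblast markers summed to 714 to 809 FPKM in control, 1167 to 1187 FPKM in TGF-β and 1069 to 1085 FPKM in TGF-β + uridine. VIM alone stood at 438 to 852 FPKM over all libraries. After TGF-β the log2 fold changes of this list ranged from -0.51 to 1.58. The biliary and epithelial markers, 4 of 4 listed and nearly all KRT7, summed to 596 to 803, 1131 to 1179 and 833 to 974 FPKM. The leukocyte markers, 3 of 5 listed with PTPRC and CD3E absent, summed to 19.4 to 20.5, 30.5 to 32.6 and 27.0 to 30.5 FPKM. Their part in the change of IER3 was not tested.

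**Figure D4:**
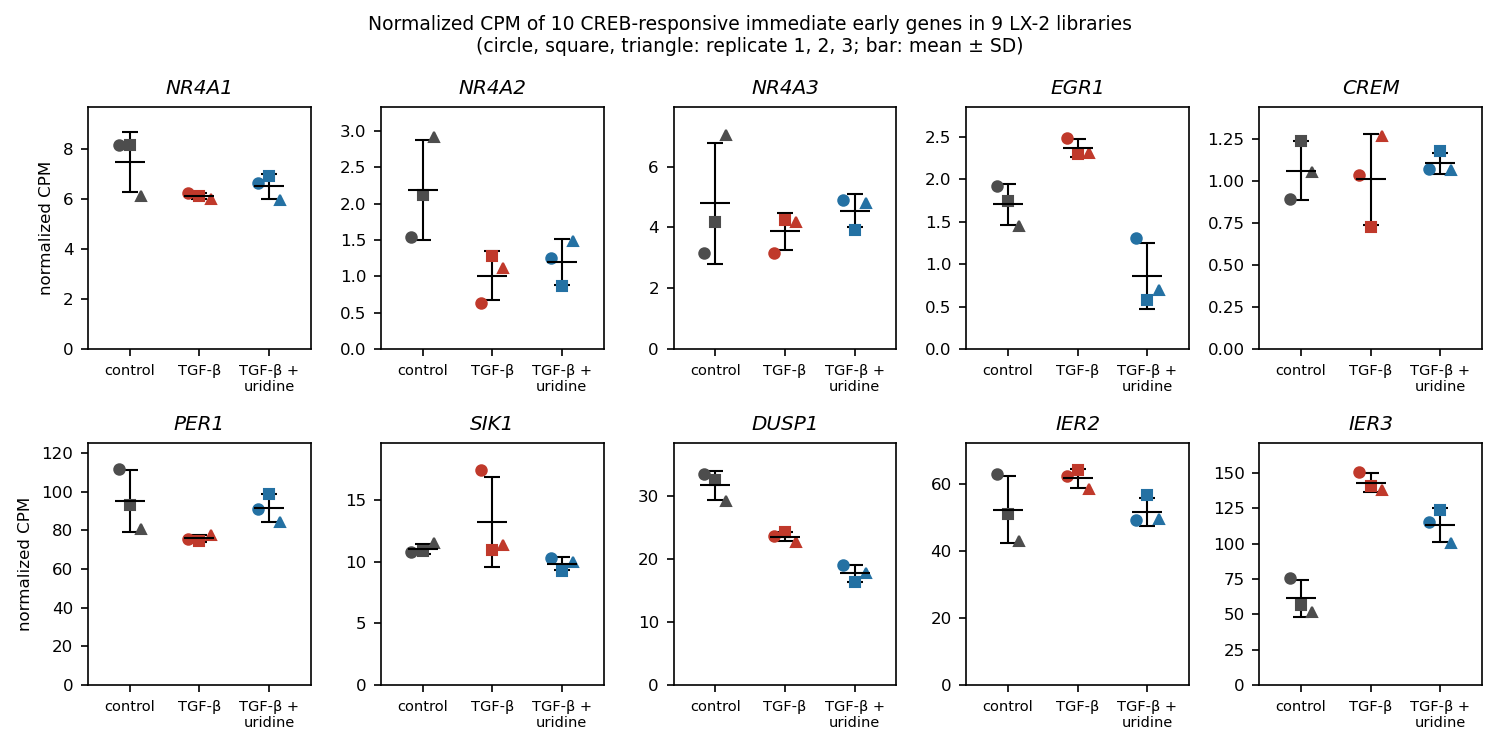
TMM-normalized CPM of each gene in each library, with an axis from 0 in each panel, 1 symbol for each replicate number and bars for the mean ± SD of 3 libraries. The groups separate fully for EGR1, DUSP1 and IER3, and TGF-β replicate 1 stands apart for SIK1.

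The 3 genes whose groups separated fully did so in 3 different orders. Of all tested genes, 566 or 4.23% separated fully in any order, and the order of EGR1, TGF-β over control over TGF-β + uridine, was the rarest, with 22 genes or 0.164%. IER3, EGR1 and DUSP1 were thus lowest, intermediate and highest in control, and all 3 were lower with uridine than with TGF-β alone in all libraries. These are counts without a test.

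The genes that act on CREB were measured in a list of 18, of which 15 were tested: CREB and related factors, the CRTC coactivators, the acetyltransferases, and the subunits and inhibitors of protein kinase A. None passed the main edgeR test or DESeq2's test in any comparison. An unadjusted p under 0.05 in edgeR was found for 0 genes in the uridine comparison, 0 in the TGF-β comparison and 2 in the comparison of TGF-β + uridine with control. Median log2 fold changes were 0.07 with uridine, -0.05 after TGF-β and -0.06 for both treatments against control. CREB1 itself was low, at a mean of 0.808 CPM in control, 0.794 CPM in TGF-β and 1.38 CPM in TGF-β + uridine. CREB1 and CRTC1 were higher without overlap in the uridine comparison, and the other tested genes of the list overlapped. In that comparison 25.6% of all tested genes did not overlap. With the GC slope covariate 2, 5 and 4 of the 15 passed, beside 19.1%, 20.3% and 31.2% of all tested genes. Without control replicate 1, ATF1, CRTC1 and EP300 passed in the TGF-β comparison and in the comparison of TGF-β + uridine with control. In each, 1 of them was higher and 2 were lower. Of all 13684 genes tested in that fit, 709 rose and 376 fell in the first comparison, and 1297 rose and 1116 fell in the second.

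Other CREB target genes split between directions, with 14 of 16 tested. JUNB, an AP-1 subunit, rose from 91.6 ± 19.7 CPM in control to 226 ± 5.48 CPM in TGF-β (SD, n = 3), a log2 fold change of 1.30 ± 0.156 (adjusted p = 0.00203, edgeR). It remained above control in TGF-β + uridine, at 1.08 ± 0.155 (adjusted p = 0.00502, edgeR). FOS, the AP-1 partner and a classical CREB and serum response factor target, fell instead in TGF-β + uridine against control, from 13.9 ± 0.703 to 4.97 ± 0.367 CPM (log2 fold change -1.49 ± 0.147, adjusted p = 6.6e-04, edgeR). Its value in TGF-β lay between, at 10.1 ± 0.791 CPM. In the uridine comparison the log2 fold change of FOS was -1.02 ± 0.146 (adjusted p = 0.0992, edgeR). There 0 of the 14 genes passed in edgeR, 1 had an unadjusted p under 0.05, and FOS passed in DESeq2. FOS thus stood in the same order of groups as DUSP1. The other tested genes of this list did not pass the main edgeR test in any comparison. GEM passed in DESeq2 after TGF-β and in TGF-β + uridine against control. With the GC slope covariate 3 of the 14 passed with uridine, 4 after TGF-β and 5 in TGF-β + uridine against control. These counts stand beside 19.1%, 20.3% and 31.2% of all tested genes. In the last comparison 5 also passed without control replicate 1, where 1297 of all 13684 tested genes rose and 1116 fell.

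A wider list of immediate early and early response genes, 29 of 35 tested, held 6 genes that rose after TGF-β and none that fell. JUN rose from 8.44 ± 0.751 to 46.2 ± 1.17 CPM, a log2 fold change of 2.45 ± 0.119 (adjusted p = 1.6e-05, edgeR). CCN1, a matricellular protein, rose by 1.57 ± 0.0862 on the log2 scale, the MAP kinase phosphatase DUSP4 by 0.90 ± 0.135 and the transcription factor KLF4 by 0.87 ± 0.129. The remaining 2, KLF10 and BTG1, rose by 0.60 and 0.42 and each passed in 7 of 18 alternative settings. Fitted with the GC slope covariate, 12 genes of the list rose and 2 fell after TGF-β, beside 20.3% of all tested genes in either direction. JUN, CCN1 and KLF4 also passed when TGF-β + uridine was compared with control, at 2.12, 1.11 and 0.70 on the log2 scale. In that comparison KLF4 passed in 14 of 18 alternative settings, and 15 genes passed with the GC slope covariate, beside 31.2% of all tested genes. When 1 library was left out, 2 to 9 passed, with 9 without control replicate 1, where 1297 of all 13684 tested genes rose and 1116 fell. With uridine none of the 29 passed the main edgeR test, 6 had an unadjusted p under 0.05, and CCN1 passed in DESeq2 (edgeR log2 fold change -0.46 ± 0.0842). CCN1 and DUSP4 passed, both lower with uridine, when only these 2 groups were fitted and without control replicate 1. The GC slope covariate gave 1 gene that rose and 7 that fell, beside 19.1% of all tested genes in either direction. The median of the list was 0.12 after TGF-β and -0.08 with uridine, beside -0.05 and 0.02 for all tested genes.

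DUSP4 was also the 1 of 11 tested paralogues of the 10 genes that passed, after TGF-β. It inactivates MAP kinases as DUSP1 does, but its direction after TGF-β was opposite to that of DUSP1, with 18.4 ± 2.34 CPM in control, 34.2 ± 1.96 CPM in TGF-β and 24.1 ± 2.49 CPM in TGF-β + uridine (SD, n = 3). None of the paralogues passed with uridine in the main edgeR fit or in DESeq2, and 3 had an unadjusted p under 0.05 in edgeR. With uridine DUSP4 passed when only these 2 groups were fitted and without control replicate 1. DUSP2, DUSP4 and IER5L passed with the GC slope covariate, beside 19.1% of all tested genes.

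Of the clock genes, 14 of 17 were tested beside PER1. BHLHE40, a repressor of the clock, rose after TGF-β from 103 ± 4.26 to 200 ± 4.41 CPM (log2 fold change 0.96 ± 0.0817, adjusted p = 3.1e-04, edgeR). DBP, an output gene of the clock, fell from 22.8 ± 7.41 to 10.2 ± 0.417 CPM (log2 fold change -1.16 ± 0.232, adjusted p = 0.0284, edgeR). Both also passed in TGF-β + uridine against control, at 0.84 ± 0.0815 and -1.49 ± 0.235. The call of DBP after TGF-β passed in 11 of 18 alternative settings. None of the 14 passed with uridine in the main edgeR fit or in DESeq2, and 0 had an unadjusted p under 0.05 in edgeR. CRY2 and DBP passed there with the GC slope covariate, beside 19.1% of all tested genes.

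Heat shock and stress genes, which can respond to the handling of cells, were measured in a list of 14. None passed the main edgeR test in the uridine or the TGF-β comparison, where 4 and 5 had an unadjusted p under 0.05 and DESeq2 passed 0 and 1. In TGF-β + uridine against control GADD45B rose by 0.80 ± 0.183 on the log2 scale, and the near-identical pair HSPA1A and HSPA1B, between which reads may be shared, fell by 0.66 and 0.65. GADD45B passed in 8 of 18 alternative settings. With the GC slope covariate 4, 7 and 8 of the 14 passed with uridine, after TGF-β and in TGF-β + uridine against control. Of all tested genes, 19.1%, 20.3% and 31.2% passed in the same fit. The part of handling in the values of the 10 genes was not tested.

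**Figure D5:**
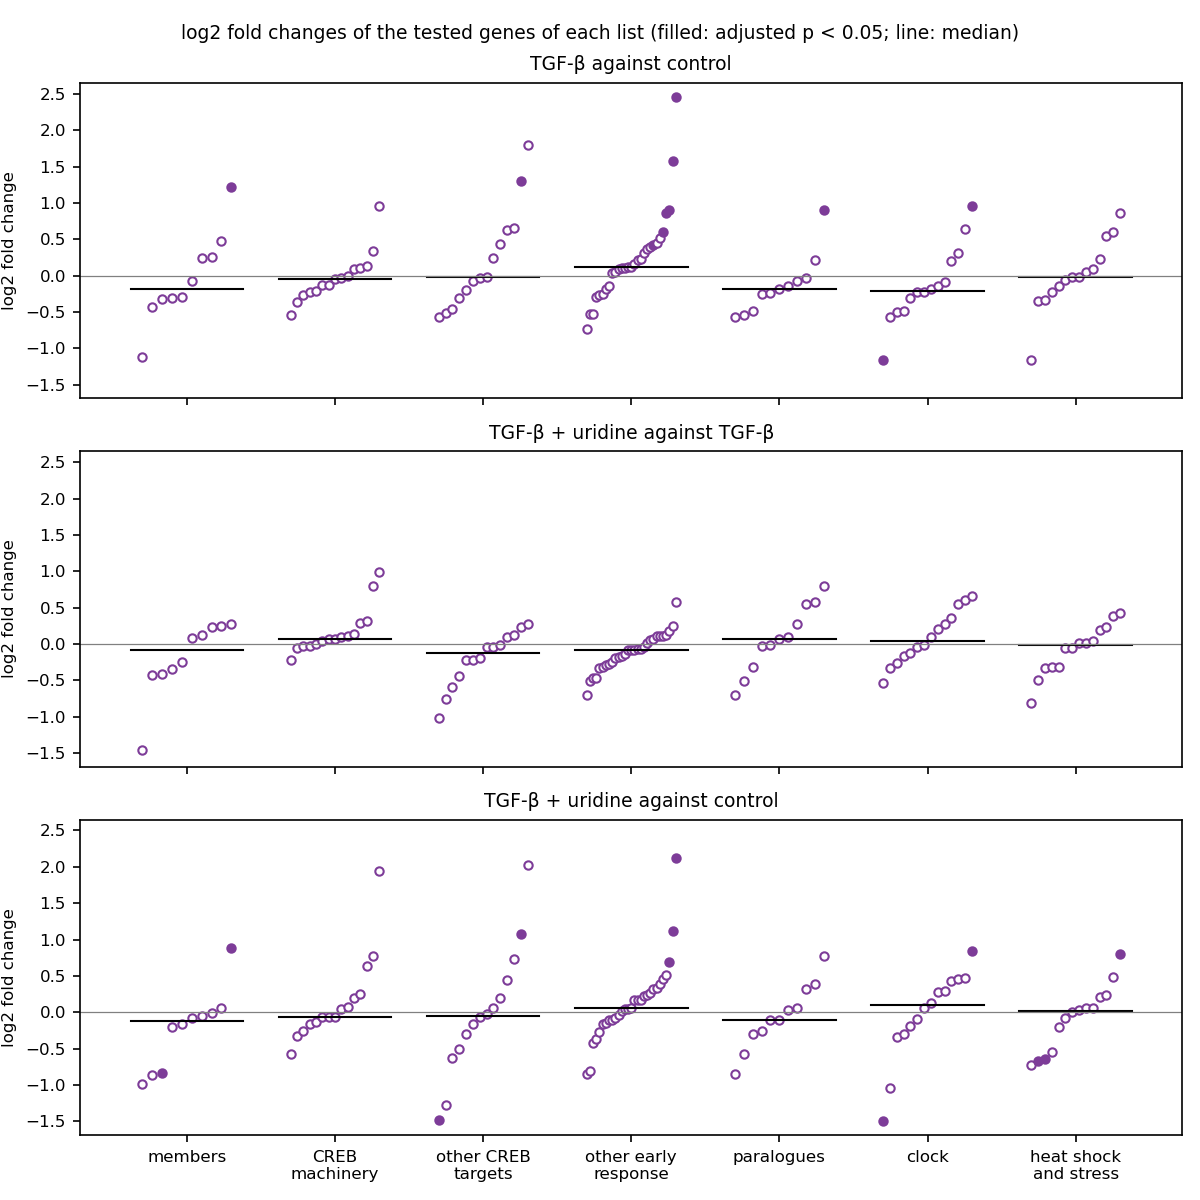
log2 fold changes of the tested genes of each list in the 3 comparisons, sorted within each list, filled where the adjusted p is under 0.05 and with a line at the list's median. The filled points after TGF-β are mostly above 0 and include JUN at 2.45, and no point is filled in the uridine comparison.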

How the data were processed

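RNA of 9 LX-2 libraries was analysed in 3 groups of 3, assigned from the sample titles. The authors deposited a table of raw read counts per gene symbol, which was the input of all tests. A second deposited table gives FPKM, in which each gene has the same length in all libraries. FPKM served to compare levels between genes, for the NR4A shares and marker sums of each group, and beside CPM for IER2 and for the order of the control libraries. No test used FPKM. The submitters' processing notes name fastp, HISAT2, HTSeq, R 3.2.0 and the build GRCh38.p13. Settings, the annotation and the strand of counting are not given in the sources used here. Reads that could match several genes, as for SIK1 or the HSPA1A and HSPA1B pair, may have been lost or divided before deposition.

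Counts were fitted with edgeR 4.0.16 under R 4.3.3, after filterByExpr and TMM, by glmQLFit and glmQLFTest in 1 model of condition over all 9 libraries, with a common biological coefficient of variation of 0.289. The methods of the study state no test for the sequencing data. The SE of a log2 fold change is its size divided by the root of the F statistic. Tests were two-sided, with Benjamini-Hochberg adjustment across the 13384 genes tested and a threshold of 0.05. The fit was first tested on simulated counts. Alternatives were DESeq2 1.42.0, RLE and upper-quartile normalization, no filter, at least 10 counts in every library, only the groups compared, the replicate number as a block, a GC slope covariate with and without that block, and leaving out each library. GC content and gene coordinates come from GENCODE v29 (GRCh38), matched by symbol for 12818 tested genes. Promoter windows on chromosome 8 were left out. Poisson intervals cover counting error only.

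The 10 genes and the lists were chosen with earlier results of these data known. Named genes are the 10 genes, up to 4 genes per list and comparison that passed the test, by size of change, and the 2 nearest profiles of each gene that passed. KLF10, BTG1 and genes named only for an alternative setting were chosen after their values were seen.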

Additional observations from a re-analysis of the deposited data

How the results depend on the processing

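The calls of IER3 after TGF-β and of DUSP1 in TGF-β + uridine against control passed under all 18 alternative settings, whereas the other calls of the 10 genes depended on the setting. Among all tested genes, 6 passed in the uridine comparison, 453 in the TGF-β comparison and 714 in TGF-β + uridine against control. In that order, DESeq2 passed 117, 719 and 1103, fits of only the 2 groups compared 317, 229 and 222, and the GC slope covariate 2563, 2719 and 4172. Upper-quartile normalization passed 10 in the uridine comparison. Leaving out 1 library gave 0 to 271, 218 to 1085 and 304 to 2413 genes, with the highest count each time without control replicate 1. Of the 10 genes, the main fit passed 0, 1 and 2, DESeq2 1 in the uridine and 2 in the TGF-β comparison, the GC slope covariate 5, 5 and 4, and fits of only the 2 groups 1 in TGF-β + uridine against control. Leaving out 1 library passed 0 to 0, 1 to 2 and 1 to 2 of them. The cause of these shifts was not tested.

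Replicate numbers are shared by the groups, but nothing says that they mark a culture or day. Correlations of same-numbered deviations between the groups were -0.12, -0.09 and -0.03 for uridine, 0.22, 0.10 and 0.08 for TGF-β and -0.18, -0.21 and 0.56 for both against control, so that the numbers were not taken as pairs. The replicate block passed 0, 314 and 437 of all tested genes and changed no call of the 10 genes. Together with the GC slope covariate, the replicate block passed 2072, 2345 and 3766 of all genes and 5, 5 and 3 of the 10.

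Small values turned in sign. IER2 in TGF-β + uridine against control was 0.0279 with the GC slope covariate, 0.0278 with the replicate block and that covariate, and between -0.14 and 0.12 when 1 library was left out. In the same comparison NR4A3 ranged from -0.32 to 0.31, CREM from -0.0719 to 0.18 and PER1 from -0.17 to 0.0547. After TGF-β, NR4A3 ranged from -0.54 to 0.0767 and CREM from -0.27 to 0.12, and with uridine CREM ranged from -0.0598 to 0.33. The CRE core in place of the palindrome raised the share of genes with a match from 2.03% to 24.9%. Depth limits CREM, EGR1 and NR4A2 most, with 22 reads in the lowest library.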
